A study of Mus musculus with 14 samples.

Results

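The potassium channel genes of the mouse were followed through a ribosome pull-down from the locus coeruleus, the noradrenergic nucleus of the brainstem. Of 55421 mouse genes in the deposited table, 99 have a symbol beginning with Kcn. The transcript Kcnq1ot1 and the antisense genes Kcnab3os and Kcnd3os were left out, which leaves 96. They are 94 coding genes for channels and their auxiliary subunits, plus the antisense genes Kcnmb4os1 and Kcnmb4os2, whose names end in a number and so pass the rule.

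Brainstem tissue came from 7 mice, aged 2 to 3 months, on a C57Bl/6 background. All were TH-Cre;Slc6a2-eGFP/Rpl10a, so every group, controls included, carried both transgenes: Cre driven from the tyrosine hydroxylase gene, and a green-fluorescent ribosomal protein (Rpl10a) driven from the noradrenaline transporter gene. Both drivers mark noradrenergic neurons, and Th is also used by dopaminergic cells. The locus coeruleus had been infused with human tau carrying the P364S mutation in 4 animals, lettered M, L, C and B, or with EYFP, a fluorescent protein, in 3 controls, lettered K, I and H. From every mouse both the ribosome immunoprecipitate (IP) and the total homogenate before it (pre-IP) were sequenced, so the groups were tau IP and tau pre-IP (n = 4 each) and EYFP IP and EYFP pre-IP (n = 3 each).

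Potassium channels let potassium leave the cell and pull the membrane towards rest, which sets the firing rate, the width of the action potential and the pause after it. Subunits assemble around a central pore, and related ones can mix in a channel, so which paralogues a cell uses shapes its excitability. Neurons of the locus coeruleus are pacemakers, and noradrenaline and opioids silence them by opening G protein-gated inward rectifiers. Astrocytes, oligodendrocytes, microglia and choroid plexus cells carry channels of their own, so a homogenate mixes several sources.

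Total counts ran from 41843489 to 65664551 per library, and values are given as counts per 1000000 (CPM) after scaling by the trimmed mean of M-values (TMM). The 12 noradrenergic markers were all higher in IP. The mean log2 ratio of IP to pre-IP over them was 1.71 to 4.69 in the tau animals and 0.63 to 0.91 in the EYFP animals. Averaged over the EYFP animals it was 0.76, beside -0.01 for astrocyte, -0.11 for oligodendrocyte and 0.27 for other neuronal markers. Over the tau animals it was 3.40, beside -0.57, -0.63 and -0.35. Dbh, which makes noradrenaline, averaged 39.4 ± 14.4 CPM (SD, n = 3) in EYFP IP and 820 ± 574 CPM (SD, n = 4) in tau IP. RNA concentration was 11.4 to 29.9 ng per microlitre in pre-IP and 0.1 to 2.8 in IP. Within IP it was 0.7 to 2.8 in the EYFP libraries and 0.1 to 0.8 in the tau libraries. The EYFP IP library of animal I had an RNA integrity number of 4.2. Counts of the tau construct were 3527 to 47177 in the tau libraries and 2 to 18 in the EYFP libraries of H and I, but 408 and 398 in those of K. Animal M is labelled female, and its pre-IP and IP libraries held 674 and 1153 counts of Y-linked genes. Counts of Xist, a transcript of female cells, were 0 and 21 in these libraries. They were 16 to 120 in the other libraries labelled female and 0 in those labelled male. Results are therefore given with each animal left out where this changed a call. In bulk samples, fewer cells of a type and less RNA per cell cannot be told apart.

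Levels were compared between genes only per kilobase of gene length. The highest of all members was Kcnab2, a cytosolic beta subunit of the Kv1 channels, at 108.8 ± 23.7 CPM per kilobase in pre-IP (SD, n = 7) and 69.8 ± 14.4 in IP. Next in pre-IP came Kcnk1, a weak leak channel, at 48.9 ± 5.06 CPM per kilobase. Close to it were Kcnip3 at 47.2, Kcng4 at 42.8 ± 10.6 and Kcnc4 at 39.9 ± 5.22, and each differs from the next in this order by less than the larger SD of the pair. In each of the families the same gene led in both fractions. Other leaders in pre-IP were Kcna6 at 20.5, Kcnj9 at 18.8, Kcnh2 at 17.6, Kcnt1 at 9.65, Kcnn1 at 7.88 and Kcnd2 at 3.62 CPM per kilobase. Summed over all 96 genes, the level was 688 ± 94.9 CPM per kilobase in EYFP pre-IP and 678 ± 65.4 in tau pre-IP. In EYFP IP the sum was 584.4 ± 36.2 and in tau IP 494 ± 57.7.

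The comparison of IP with pre-IP asked which channel transcripts were higher or lower after the pull-down. What part of an IP library came from tagged ribosomes was not tested. Of the 96 genes, 84 passed the filter on low counts; the other 12 never exceeded 26 counts in a library, and Kcnj1 had 0 in all. By edgeR's quasi-likelihood test at an adjusted p of 0.05, 9 of the 84 members (10.7%) were higher in IP, against 16.3% of all genes tested, and 20 (23.8%) were lower, against 14.7%. The median log2 fold change was -0.31 over the members and -0.00 over all genes. Below 0 lay 58 of the 84 members, beside 9447 of 18792 genes tested. The member medians were -0.69, -0.42, -0.26 and -0.23 in tau animals B, C, L and M, and -0.15, -0.04 and -0.23 in EYFP animals H, I and K.

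Higher in IP were Kcnh7, Kcnip4, Kcnq3, Kcng2, Kcnb2, Kcnk3, Kcnj10, Kcnma1 and Kcnk9, by 0.36 to 1.35 on the log2 scale. Among the genes that were lower, by -0.37 to -1.28, were Kcnj4, Kcnt1, Kcng4, Kcnd1, Kcnip2, Kcnk13, Kcnk2, Kcnh1, Kcnj14, Kcnab2, Kcna5, Kcnip3, Kcnh6, Kcnn1, Kcnh2, Kcnc4, Kcnj9, Kcnk4 and Kcnk1. The direction was shared by all 7 animals for 21 of these 29 genes. The genes were called from the same libraries, so this is no separate support, and the share over all genes is not given here. Each of 17 genes, 6 higher and 11 lower, stayed past the threshold whichever animal was left out. For this too the share over all genes is not given here, so it is not read as particular to the channels. With the animal as a block, edgeR called 10 members higher and 28 lower. The share of all genes called in that fit is not given here, so these counts are not read as a channel result. Called in both fits were 28 of the 29 genes, with Kcnk9 the exception (edgeR adjusted p = 0.0553).

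**Figure D1:**
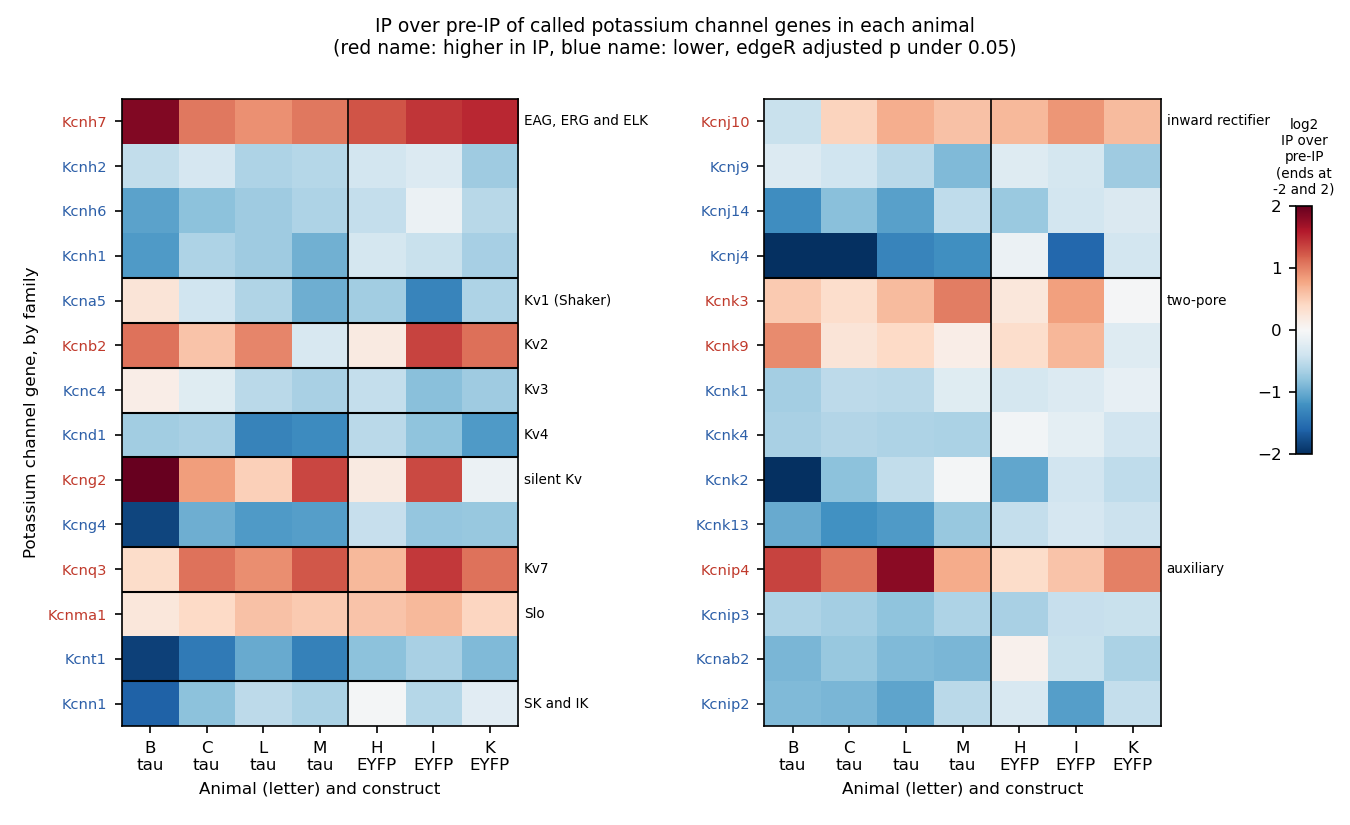
Colour gives the log2 ratio of IP over pre-IP for 28 of the genes called (rows, by family) in each of the 7 animals (columns, 4 tau and 3 EYFP); red names were higher in IP and blue names lower by edgeR at an adjusted p of 0.05. Kcnh7 is red in every animal, from 0.92 in L to 1.85 in B, while Kcnh1, Kcnh2 and Kcnh6 of the same family are blue in every animal.

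The ether-a-go-go families split. These channels (EAG, ERG and ELK) repolarize slowly or resist repeated firing. At the threshold 1 of the 8 members was higher (12.5%) and 3 were lower (37.5%), beside 16.3% and 14.7% of all genes. Of all 18792 genes tested 9447 had a log2 fold change below 0, and of the 8 members 7 did. The exception was Kcnh7, an ERG subunit, at chr2:62693414-63184287 on the minus strand of GRCm38. Its level was 3.14, 4.39 and 4.65 CPM (lowest, median and highest of 7) in pre-IP and 7.09, 9.44 and 16.9 CPM in IP. Every IP library exceeded every pre-IP library, and the log2 fold change was 1.35 (SE 0.179, edgeR adjusted p = 8.93e-05). The value was 1.27 in the tau animals alone and 1.41 in the EYFP animals alone, past the threshold in both, and the difference between the treatments was -0.10 (SE 0.364, edgeR adjusted p = 0.979).

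Both other ERG genes went the other way. Kcnh2 encodes the ERG subunit best known from the heart rhythm. It ran from 64.4 over 76.7 to 121 CPM in pre-IP and from 47.4 over 58.8 to 74.0 CPM in IP, with overlapping libraries and a lower ratio in 7 of 7 animals (log2 fold change -0.50, SE 0.155, edgeR adjusted p = 0.0229). The call for Kcnh2 was lost without animal L (highest adjusted p with 1 animal left out 0.0699). Kcnh6 was lower by -0.60 (SE 0.179, edgeR adjusted p = 0.0177), and the EAG gene Kcnh1 by -0.66 (SE 0.175, edgeR adjusted p = 0.00899). Per kilobase Kcnh7 was far below Kcnh2, at 0.273 against 17.6 CPM per kilobase in pre-IP and 0.690 against 12.4 in IP.

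The coding stretch around the selectivity filter shows how alike these ERG genes are and how they differ in base composition. The stretches were read from GENCODE M21 transcripts of GRCm38, 5′ to 3′ on the coding strand, with the 15 bases of the 5 filter codons in capitals and 30 bases on each side.
Kcnh7: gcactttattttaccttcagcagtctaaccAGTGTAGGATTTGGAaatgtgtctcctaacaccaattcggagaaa
Kcnh2: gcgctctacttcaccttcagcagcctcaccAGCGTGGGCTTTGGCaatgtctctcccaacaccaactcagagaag
Kcnh6: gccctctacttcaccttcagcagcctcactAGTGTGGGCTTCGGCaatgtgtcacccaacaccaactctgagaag
They lie at chr2:62777313-62777387 (exon 8 of 16, minus strand), chr5:24325525-24325599 (exon 7 of 15, minus strand) and chr11:106019046-106019120 (exon 6 of 13, plus strand). Kcnh7 and Kcnh2 differ at 15 of 75 bases, in 15 of 25 codons, and all 15 codon pairs specify the same amino acid. Between Kcnh7 and Kcnh6 there are 16 such differences, again all synonymous, and between Kcnh2 and Kcnh6 there are 7. The stretch is 40% GC in Kcnh7, 56% in Kcnh2 and 54.7% in Kcnh6.

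The Kv7 family, which carries the M-current that muscarinic receptors close, had Kcnq3 among the genes that were higher in IP. Kcnq3 (chr15:65986387-66286642, minus strand) ran from 4.75 over 9.47 to 10.9 CPM in pre-IP and from 11.3 over 14.1 to 25.3 CPM in IP, with no overlap. Its log2 fold change was 0.97 (SE 0.226, edgeR adjusted p = 0.00416), and the ratio was above 0 in 7 of 7 animals. Per kilobase its level was 0.548 CPM per kilobase in pre-IP and 1.07 in IP. Kcnq5 was at 0.07 (SE 0.176, edgeR adjusted p = 0.808).

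Among the A-type channels and their calcium-sensing partners, paralogues also parted. Kcnd1, a pore subunit of the fast-inactivating Kv4 current that delays the next spike, ran from 10.8 over 14.8 to 23.6 CPM in pre-IP and from 6.68 over 8.43 to 10.7 CPM in IP. No IP library reached a pre-IP library, and the log2 fold change was -0.94 (SE 0.165, edgeR adjusted p = 0.000595). Kcnd2, the highest of the family per kilobase, was at 0.31 (SE 0.201, edgeR adjusted p = 0.268). The K+ channel-interacting proteins bind Kv4 subunits and set their surface level and kinetics. Kcnip4 ran from 28.2 over 43.9 to 62.4 CPM in pre-IP and from 56.9 over 89.6 to 158.5 CPM in IP, and rose in 7 of 7 animals (log2 fold change 1.00, SE 0.239, edgeR adjusted p = 0.00495), although the libraries overlapped. Kcnip3 ran from 148 over 167 to 188 CPM in pre-IP and from 99.6 over 108 to 126 CPM in IP, without overlap, and was lower by -0.60 (SE 0.0867, edgeR adjusted p = 0.000161). Kcnip2 was lower by -0.75 (SE 0.144, edgeR adjusted p = 0.00114), and Kcnip1 was at -0.05 (SE 0.0983, edgeR adjusted p = 0.749).

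**Figure D2:**
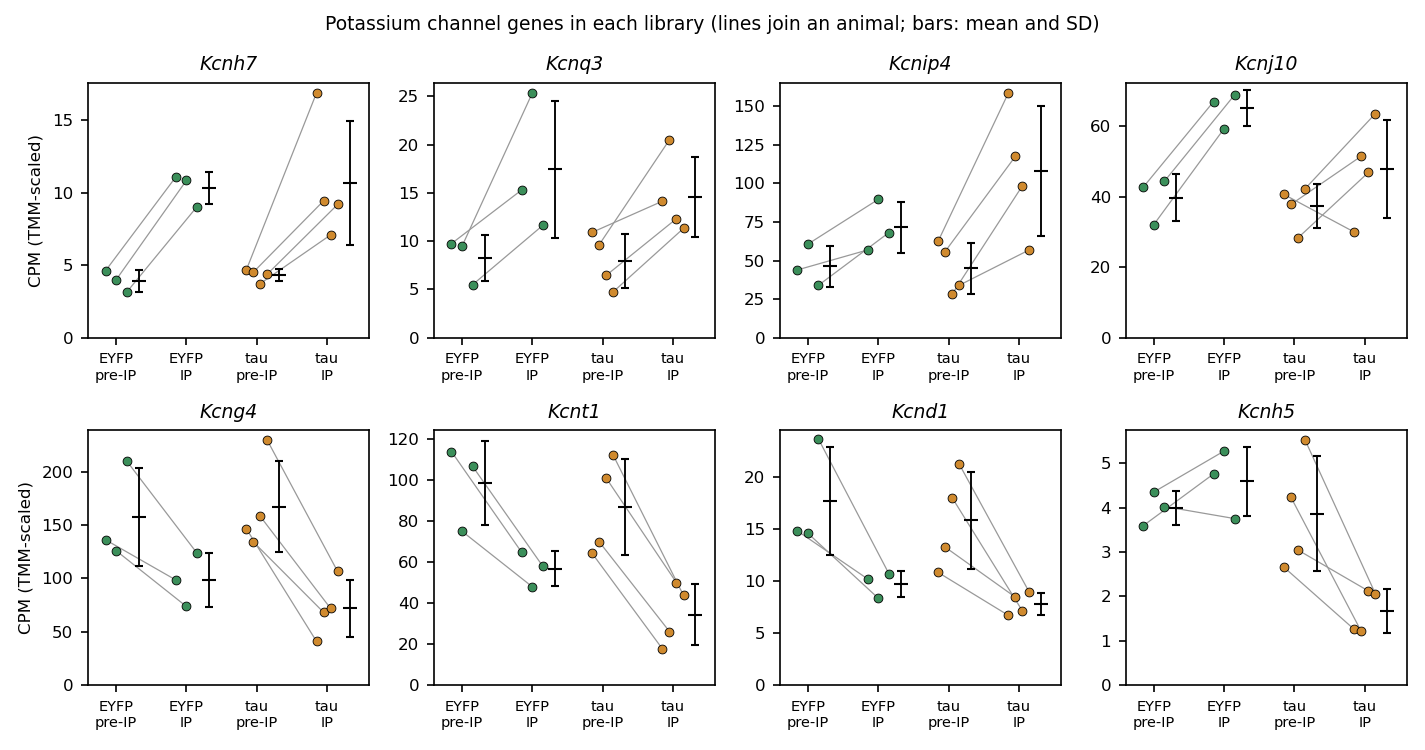
Points are the TMM-scaled CPM of 1 library, green for EYFP and orange for tau animals, with grey lines joining the fractions of an animal and black bars for the mean and SD of each group (n = 3 or 4). Kcnh7 and Kcnq3 rise on every line, and Kcng4, Kcnt1 and Kcnd1 fall on every line. For Kcnh5 the tau IP libraries (1.21 to 2.12 CPM) lie below the EYFP IP libraries (3.75 to 5.28 CPM). That difference did not pass (edgeR adjusted p = 0.318), and 5.84% of all genes lay below EYFP without overlap.

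The Slo channels include the sodium-activated Kcnt1 and the large-conductance, calcium-activated Kcnma1. Kcnt1 ran from 64.1 over 101 to 114 CPM in pre-IP and from 17.6 over 47.8 to 64.5 CPM in IP. It was lower in 7 of 7 animals, and the fractions met where the highest IP value, 64.5 CPM, passed the lowest pre-IP value, 64.1 CPM (log2 fold change -1.10, SE 0.216, edgeR adjusted p = 0.00139). Kcnma1, which ends the spike in many neurons, was higher by 0.49 (SE 0.175, edgeR adjusted p = 0.0415) in 7 of 7 animals. That call was lost in turn without B, H, I or L (highest adjusted p 0.106). Of the small-conductance channels, which contribute to the pause after a spike, Kcnn1 was lower by -0.57 (SE 0.187, edgeR adjusted p = 0.0295). Kcnn2 was at -0.20 and Kcnn3 at 0.51 (SE 0.122 and 0.215), with edgeR adjusted p = 0.244 and 0.0814. The Kcnn1 call did not hold without C or L.

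Of the tested genes, 1 of 6 in Kv1 and 1 of 4 in Kv3 were lower, and 1 of 2 in Kv2 was higher. Of 8 tested silent subunits, which modify Kv2, 1 was higher and 1 lower. Of all genes 16.3% were higher and 14.7% lower. Kcnb2, a Kv2 subunit, was higher by 0.77 (SE 0.214, edgeR adjusted p = 0.0123), in 6 of 7 animals, with M the exception. Its call was lost without animal I (adjusted p 0.0505). The silent subunit Kcng4 ran from 126 over 147 to 229 CPM in pre-IP and from 40.9 over 73.6 to 124 CPM in IP, with no overlap (log2 fold change -0.98, SE 0.206, edgeR adjusted p = 0.00219). Kcng2, of the same class, ran from 1.52 over 2.29 to 3.72 CPM in pre-IP and from 3.27 over 4.65 to 6.79 CPM in IP; the libraries overlapped, and it was higher by 0.89 (SE 0.244, edgeR adjusted p = 0.0110). Kcnc4 was lower by -0.47 (SE 0.114, edgeR adjusted p = 0.00556) and Kcna5 by -0.64 (SE 0.195, edgeR adjusted p = 0.0200), the latter lost without I or M. The remaining 3 Kv3 genes and 5 tested Kv1 genes did not pass. Kcna6, the highest Kv1 gene per kilobase, was at -0.15 (SE 0.0967, edgeR adjusted p = 0.259). Kcnab2, the beta subunit at the top of the ranking, ran from 556 over 697 to 1015 CPM in pre-IP and from 359 over 499 to 615 CPM in IP. It was lower by -0.65 (SE 0.149, edgeR adjusted p = 0.00400) in 6 of 7 animals; in H the log2 ratio was 0.09.

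The G protein-gated inward rectifiers, through which noradrenaline and opioids act on this nucleus, gave 1 call in 4 genes, and it was negative. Of all genes tested 16.3% were higher and 14.7% lower. Kcnj9, of this class, ran from 70.0 over 80.1 to 93.0 CPM in pre-IP and from 38.2 over 61.1 to 77.5 CPM in IP, and was lower by -0.45 in 7 of 7 animals (SE 0.145, edgeR adjusted p = 0.0263). This was lost without L or M. Kcnj3 was at 0.30 (SE 0.128, edgeR adjusted p = 0.0852, and 0.04995 with the animal as a block). The log2 fold changes of Kcnj5 and Kcnj6 were -0.46 and -0.41 (SE 0.501 and 0.345), with edgeR adjusted p = 0.523 and 0.399. Animal B had the lowest ratio for both, -2.71 and -3.26. The classical inward rectifier Kcnj4 gave the most negative call of all members, -1.28 (SE 0.446, edgeR adjusted p = 0.0377), at 1.92 to 7.10 CPM in pre-IP and 0.251 to 2.83 CPM in IP. It was lost without C, I or M. Kcnj14 was lower by -0.66 (SE 0.242, edgeR adjusted p = 0.0477), a call lost without B, C, H, I or L.

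Leak channels of the tandem-pore class hold the resting potential. The acid-sensitive pair Kcnk3 and Kcnk9 was higher in IP. Kcnk3 ran from 18.2 over 24.03 to 26.3 CPM in pre-IP and from 25.96 over 30.2 to 42.5 CPM in IP (log2 fold change 0.53, SE 0.131, edgeR adjusted p = 0.00604), with a slight overlap and with animal K alone not above 0, at -0.02. Kcnk9 was at 0.36 (SE 0.130, edgeR adjusted p = 0.0430), a call lost with any animal but K left out. Lower were Kcnk13 at -0.74 (SE 0.162), the mechanosensitive Kcnk2 at -0.68 (SE 0.217) and Kcnk4 at -0.43 (SE 0.134), and Kcnk1 at -0.37 (SE 0.124), with edgeR adjusted p = 0.00272, 0.0264, 0.0222 and 0.0308. Kcnk13 is known from microglia, and its call held whichever animal was left out; Kcnk2 was lost without C, H or K, Kcnk4 without B, C, L or M, and Kcnk1 without B, C, H or L.

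Members known from other cells were read separately. Kcnj10, the main potassium-buffering channel of astrocytes, ran from 28.4 over 40.7 to 44.4 CPM in pre-IP and from 30.01 over 59.4 to 69.0 CPM in IP. It was higher by 0.52 (SE 0.151, edgeR adjusted p = 0.0152) in 6 of 7 animals, and in B it was lower, at -0.44. Its common partner Kcnj16 was at -0.32 (SE 0.182, edgeR adjusted p = 0.199). Of 9 astrocyte markers 1 was higher and 3 were lower in IP, of 10 oligodendrocyte markers 4 were lower, and of 8 microglial markers, among which Kcnk13 was not counted, 3 were lower. The vascular Kcnj8 was at -0.35 and the choroid plexus gene Kcnj13 at 0.38 (SE 0.229 and 0.454), with edgeR adjusted p = 0.267 and 0.569. Of 8 vascular markers 1 was higher and 1 lower, of 10 markers of other neurons 1 was higher and 1 lower, and none of 8 cerebellar or 6 choroid plexus markers passed (by edgeR 1 and 0 at an unadjusted p under 0.05). The part of these cells in the channel values was not tested.

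Of 19 genes for channel partners outside the Kcn symbols, 18 were tested. In IP 5 of them were higher and 6 lower, beside 16.3% and 14.7% of all genes, with a median of -0.09 (all genes -0.00). Among those higher were Cntnap2, which clusters Kv1 channels beside the node, at 0.56 (SE 0.127), and Dpp10, a Kv4 partner, at 0.49 (SE 0.152). Lower were Abcc8, the sulfonylurea receptor, at -0.85 (SE 0.171), Cntn2 at -0.76 (SE 0.181), and Amigo1, a Kv2 partner, at -0.63 (SE 0.136). The other Kv4 partner Dpp6 was lower too, at -0.37 (SE 0.0891).

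Base composition moved with the pull-down. The longest coding transcript had a median GC content of 45.2% in the 9 members higher in IP (range 39.3 to 61.5), 56.5% in the 20 lower (51.2 to 61.3) and 50.2% in the 55 not called. Across genes, which are not independent replicates, Spearman's rho between GC content and the log2 fold change was -0.38 over 84 members and -0.36 over 18775 genes tested. Length differed between these groups as well. The same transcripts had a median of 11820 bases in the members higher in IP, 3620 in those lower and 3698 in those not called. Spearman's rho of length with the log2 fold change was 0.12 over the members and -0.19 over all genes tested. When all genes were ranked by GC content and cut into 5 equal groups, the lowest held 12 members, of which 4 were higher and 0 lower, beside 36.3% higher and 1.62% lower of all genes there. In the next group, 2 of 17 members were higher and 0 lower, beside 16.2% and 7.96%. The middle group held 10 members, with 1 higher and 2 lower, beside 10.97% and 16.9%. Of 14 members in the following group 0 were higher and 7 lower, beside 9.001% and 23.5%. The highest held 31 members, with 2 higher and 11 lower, beside 9.19% and 23.5%; the 2 were Kcng2 and Kcnk3. RNA concentration differed between the fractions as given above, and the RNA input itself is not given. The part of GC content, of transcript length, of input and of amplification in the ratios was not tested.

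**Figure D3:**
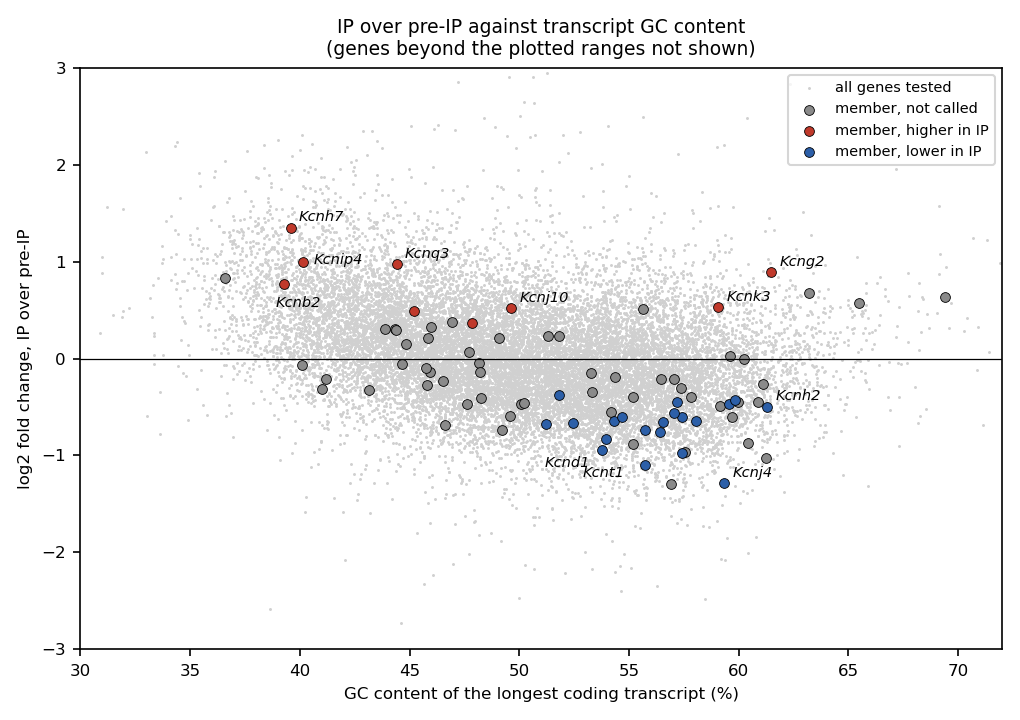
Each point is a gene, with the GC content of its longest coding transcript (%) on the x axis and the log2 fold change of IP over pre-IP on the y axis; grey dots are all genes tested and large points the 84 members, red if higher and blue if lower by edgeR at an adjusted p of 0.05. The blue points lie between 51.2 and 61.3% GC, while 7 of the 9 red points lie below 50%.

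Within treatments the calls were fewer. In the tau animals 4 of 84 members (4.76%) were higher and 12 (14.3%) lower by edgeR, beside 10.4% and 10.3% of all genes. In the EYFP animals 2 (2.38%) were higher, Kcnh7 and Kcnj10, and 3 (3.57%) lower, Kcnt1, Kcnd1 and Kcnc4, beside 3.96% and 2.41%. Kcnh7, Kcnt1 and Kcnd1 were called in both. Kcnh5 and Kcnab3 were called lower in the tau animals, at -1.23 and -0.70, but not over all animals. Over all 14 libraries, 2 members (2.38%) had every IP library above every pre-IP library and 4 (4.76%) every one below, beside 4.26% and 5.46% of all genes; these were Kcnh7 and Kcnq3, and Kcnd1, Kcnip3, Kcng4 and Kcnk2.

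The comparison of tau IP with EYFP IP, which the study's design names, asked whether transcripts in the pull-down differed with the pathogenic protein. No member passed in edgeR (0 of 84, lowest adjusted p = 0.318; all genes 0.0%), and limma voom with quality weights also called 0. DESeq2's Wald test called 1, Kcnh5, lower in tau. The share of all genes that DESeq2 called is not given here, so that call does not single out Kcnh5. At an unadjusted p under 0.05 in edgeR, 6 members (7.14%) were below EYFP in tau, beside 4.06% of all genes, and 0 were above, beside 7.93%. Among the 6 were Kcnh5, Kcnk13, Kcnh1, Kcnab2 and Kcnab3. The median log2 fold change of tau over EYFP was -0.33 over the members and -0.08 over all genes. Below 0 were 62 of 84 members, beside 11014 of 19472 genes tested. By family the median ran from -0.10 in the Slo genes and -0.13 in Kv3 to -0.42 in the inward rectifiers, where 12 of 13 genes were below 0. Of these 13 genes, 0 had an unadjusted edgeR p under 0.05, so no family effect is read from this.

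Kcnh5, a second EAG subunit (chr12:74897220-75177332, minus strand), had the smallest p of the members in this comparison. Its EYFP IP values were 4.76 CPM in H, 5.28 in I and 3.75 in K, and its tau IP values 1.25 in B, 1.21 in C, 2.12 in L and 2.06 in M. The groups did not overlap, and the log2 fold change was -1.47 (SE 0.349, edgeR adjusted p = 0.318). In pre-IP the same animals gave 3.59, 4.35 and 4.02 CPM with EYFP and 2.66, 4.23, 3.04 and 5.52 CPM with tau, which overlap (log2 fold change -0.06, SE 0.248, edgeR adjusted p = 1.00). The interaction of treatment and fraction was -1.42 (SE 0.425, edgeR adjusted p = 0.606). Raw counts of Kcnh5 ran from 55 to 330 per library. With each animal left out in turn, its log2 fold change of tau IP over EYFP IP ran from -1.64 to -1.34 (highest edgeR adjusted p 0.636).

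Of the others, Kcnh1 was at 16.7, 13.7 and 14.96 CPM in EYFP IP (H, I and K) and 5.30, 11.8, 11.96 and 7.97 CPM in tau IP (B, C, L and M), without overlap (log2 fold change -0.71, SE 0.292, edgeR adjusted p = 0.386). Kcnk13 was at 19.6, 21.6 and 26.1 CPM against 12.5, 11.7, 13.5 and 21.4 CPM, with library M inside the EYFP range (-0.61, SE 0.2496, edgeR adjusted p = 0.383). The beta subunits Kcnab2 and Kcnab3 were at -0.42 (SE 0.174) and -0.59 (SE 0.243), with edgeR adjusted p = 0.387 and 0.388. In all, 8 members (9.52%) lay without overlap below EYFP, beside 5.84% of all genes, among them Kcnh5, Kcnh1, Kcna2, Kcna3, Kcnn4, Kcnrg and Kcng1. Kcnc4 and Kcnip1 (2.38%) lay above, beside 8.62%. Kcnn4, a channel of microglia and blood cells, was at 1.48, 0.952 and 0.669 CPM with EYFP and at 0, 0.658, 0.118 and 0.311 CPM with tau; the 0 of library B allows up to 0.0627 CPM (3 counts).

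On the positive side, the members with the smallest p were Kcna5 at 0.59 (SE 0.278), Kcnip1 at 0.30 (SE 0.148) and Kcnip4 at 0.58 (SE 0.305), with edgeR adjusted p = 0.434, 0.444 and 0.486. For the G protein-gated genes the log2 fold changes were -0.18 for Kcnj9, -0.30 for Kcnj3, -0.84 for Kcnj5 and -0.69 for Kcnj6 (SE 0.243, 0.203, 0.816 and 0.604), none past the threshold. The EYFP and tau IP libraries differed in their cell markers. Summed CPM of the 12 noradrenergic markers were 540 to 636 in EYFP IP and 1087 to 8412 in tau IP. Those of 10 markers of other neurons were 797 to 846 and 403 to 617, of 9 astrocyte markers 976 to 1345 and 564 to 1101, and of 10 oligodendrocyte markers 8771 to 13450 and 4410 to 10900. Microglial sums were 251 to 306 and 187 to 288. Choroid plexus sums were 1054 to 1773 and 41.2 to 1220 (already 795.9 to 1386 and 39.81 to 1639 in the matching pre-IP libraries). No list gene passed in this comparison by edgeR; at an unadjusted p under 0.05, 12 of 12 noradrenergic markers were higher in tau IP, and 4 astrocyte, 4 other neuronal, 3 microglial and 2 oligodendrocyte markers were lower. Enrichment of noradrenergic transcripts and treatment moved together, and their parts in the lower channel values cannot be told apart. RNA concentration also ran lower in tau IP, at 0.1 to 0.8 ng per microlitre beside 0.7 to 2.8 in EYFP IP, and its part was not tested.

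**Figure D4:**
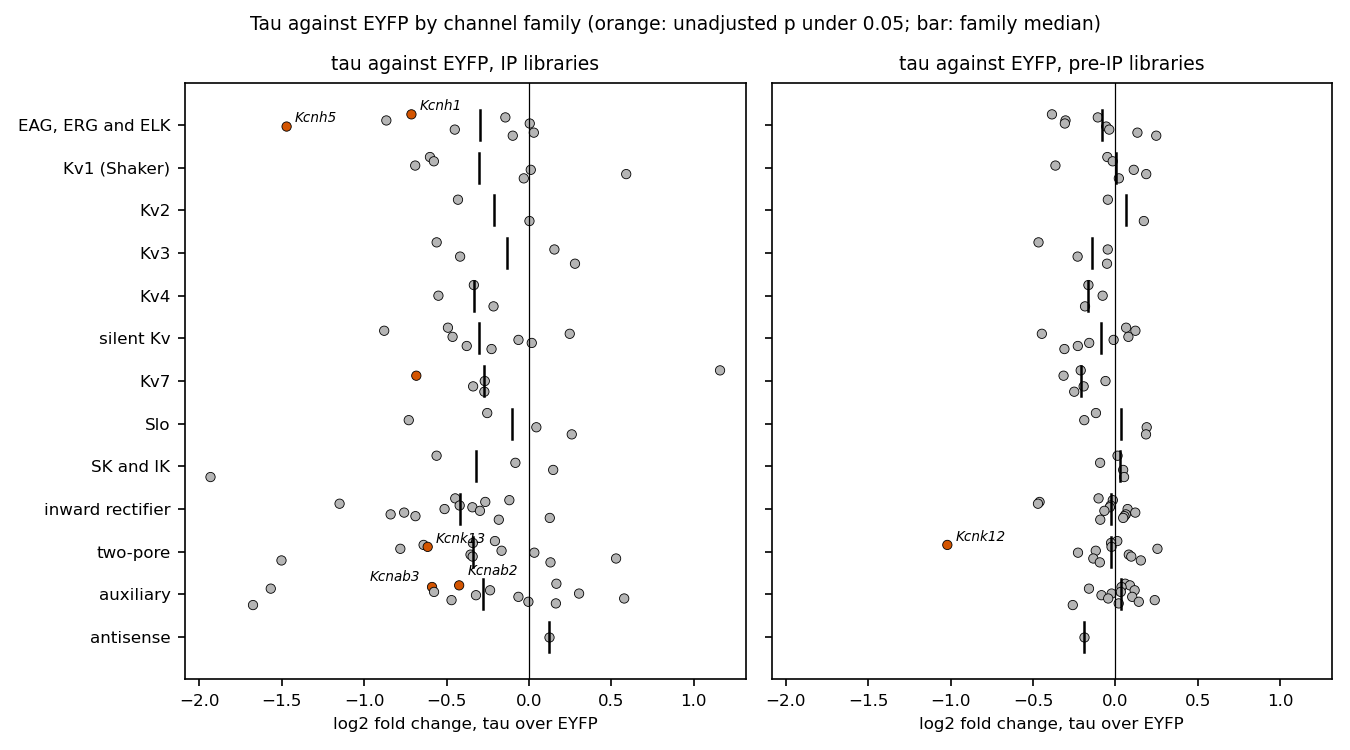
Points are the log2 fold changes of tau over EYFP for each tested gene by family, in the IP libraries (left, 4 against 3) and the pre-IP libraries (right, 4 against 3); the black bars are family medians and orange marks an unadjusted edgeR p under 0.05. In IP most family medians lie below 0 and the genes spread from -1.93 to 1.16, while in pre-IP they lie between -1.02 and 0.25.

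The homogenates gave the background for that comparison. No member passed in the comparison of tau pre-IP with EYFP pre-IP by edgeR (0 of 84; all genes 0.0%), by DESeq2 or by limma voom, and at an unadjusted edgeR p under 0.05 there was 1 below EYFP (1.19%), beside 2.26% of all genes, and 0 above, beside 0.578%. It was Kcnk12, a silent tandem-pore subunit, at 3.59, 3.66 and 7.67 CPM with EYFP and 0.926, 2.69, 4.26 and 1.89 CPM with tau (-1.02, SE 0.429, edgeR adjusted p = 1.00), and its groups overlapped. None of the 84 members had groups without overlap, beside 3.15% of all genes. The median was -0.04 over the members and -0.00 over all genes. Next by p below 0 were Kcnc1 at -0.47 (SE 0.217) and Kcnh1 at -0.39 (SE 0.187), and above 0 Kcnip3 at 0.10 (SE 0.115), Kcnh8 at 0.25 (SE 0.281) and Kcnu1 at 0.19 (SE 0.228), all with edgeR adjusted p = 1.00.

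Whether the effect of treatment differed between fractions was tested in 85 members, Kcne3 added. By edgeR 0 passed (all genes 0.0%), and DESeq2 also called 0. Kcnh5, given above, alone had an unadjusted p under 0.05 (1 below 0, 1.18%, beside 1.94% of all genes; 0 above, beside 4.03%). After it came Kcnk13 at -0.59 (SE 0.3002) and Kcnn4 at -1.98 (SE 1.04) below 0. Above 0 were Kcnip1 at 0.33 (SE 0.183), Kcnc4 at 0.34 (SE 0.219) and Kcng2 at 0.71 (SE 0.466).

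Overlapping annotation limits some members. Exons of 9 genes shared 10% or more of their bases with another gene, among them Kcnj13 (49.1%), Kcna6 (39.6%), Kcnmb4 (31.5%), Kcnj3 (31.1%), Kcnk4 (13.1%) and Kcnk2 (12.2%), so their counts are uncertain. Kcnmb4os2, antisense to the Slo auxiliary subunit Kcnmb4, was at 0.57 in IP over pre-IP (edgeR adjusted p = 0.321). The use of strand in counting is not given in the sources used here, so reads of Kcnmb4 and its antisense genes cannot be told apart.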

How the data were processed

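RNA was measured in 14 libraries made with SMART-Seq v4 and Nextera XT kits from polyadenylated RNA, per the labels' protocols. The authors deposited raw read counts per gene; FastQC, Trim Galore, STAR and featureCounts and the builds GRCm38 and mm10 are named in the submitters' processing notes, without roles. A concentration in ng per microlitre, read here as that of the RNA, and the RNA integrity number, a quality score, were deposited in the sample sheet, per the file headers. Symbols, positions and gene lengths came from the deposited gene table. GC content, exon overlap and coding stretches came from GENCODE M21, matched by identifier, ignoring the version where it differed.

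Channel members, families and gene lists were chosen with earlier results of these data known. Tests used edgeR 4.0.16 in R 4.3.3 (filterByExpr, TMM, quasi-likelihood F test, Benjamini-Hochberg over all genes tested, threshold 0.05); a standard error is the log2 fold change over the square root of F. The fraction contrast used every library, adjusting for treatment; tau and EYFP were contrasted within a fraction, and the interaction again used every library. Ratios per animal used a prior count of 2. The fits were tested on simulated data, with independent libraries and log2 changes of 3 up or down. Those changes are larger than any called here, so the simulation does not show how the fits perform at the reported sizes. Named were, per comparison and direction, up to 10 members past the threshold with the largest change, filled to 3 by smallest p, plus family leaders, the G protein-gated, Kv7 and SK genes and members known from other cells. Members behind small counts were named after their values were seen. Some genes that the rule names are not reported here. The animal letter in the labels pairs the fractions; same-animal deviations correlated at 0.147 to 0.359 in all 7 animals, so the animal block was fitted as an alternative. The others were DESeq2 1.42.0 size factors and Wald test, limma 3.58.1 voom with quality weights, other filters, library number or sex label as covariates, 1 treatment only, and each animal left out. The smallest groups hold 3 animals, and counting intervals cover counting error only.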

Additional observations from a re-analysis of the deposited data

Results flagged for a closer look

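In 100 groups of 4 libraries (the described members in tau IP and in tau pre-IP), 4 had a library whose gap to its nearest neighbour, as a ratio to the group's range, exceeded Dixon's 95% limit for 4 samples; chance flags about 1 in 20. In tau IP, library B stood highest for Kcnc4 (139.3 CPM, the others 112.8, 113.1 and 114; ratio 0.954) and for Kcnk9 (42.92 CPM, the others 28.25, 29.93 and 30.57; ratio 0.842). In tau pre-IP, library M stood highest for Kcnk1 (127.9 CPM, the others 103, 103.5 and 105.1; ratio 0.914) and for Kcnab2 (1015 CPM, the others 678.6, 697.3 and 730.6; ratio 0.845).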

How the results depend on the processing

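With IP against pre-IP, 9 members higher and 20 lower became 4 and 12 in the tau animals alone and 2 and 3 in the EYFP animals alone, fits with fewer samples. The counts stayed within 1.5 times under the other settings: 8 to 11 higher and 21 to 28 lower, the animal as replicate block giving 10 and 28. With each animal left out they were 6 to 10 and 14 to 20. Apart from the fits of 1 treatment, the shares of all genes called under these settings are not given here. With the EYFP animals alone, several values not past the threshold changed sign, among them Kcnh5 to 0.21, Kcnj5 to 0.054, Kcnj6 to 0.014 and Kcnn4 to 0.23. Kcnq5 went from 0.07 to between -0.013 (without B) and 0.13 with an animal left out, below 0 without B or I. For tau IP against EYFP IP the number lower was 0, and 1 by DESeq2's Wald test. In pre-IP, Kcnu1, 0.19 over all animals, ranged from -0.026 (without B) to 0.285 (without M); the cause was not tested. Few animals and the uneven noradrenergic enrichment limit the tau comparison, and low counts limit members such as Kcnn4 and Kcnj4.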
